A study of Mus musculus with 4 samples.

Results

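The hair shaft keratins are the keratins of the hair fibre itself, and they were followed here in back skin of mice that lack the protease ADAM17 in keratinocytes. The 10 genes listed were 7 acidic (type I) keratins, Krt31, Krt32, Krt33a, Krt33b, Krt34, Krt35 and Krt36, and 3 basic (type II) keratins, Krt81, Krt85 and Krt86. Every gene probe of the array that carried one of these symbols was taken, which gave 10 probes for 8 of the genes. Krt32 and Krt81 had no probe under their own symbol. Of the 8, 7 could be tested among 15562 genes in all, namely 6 of the 7 type I genes but only Krt85 of the type II genes, since the Krt86 spot was flagged as non-uniform on 1 array.

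A hair keratin filament is built from pairs of 1 type I and 1 type II chain, so both classes are needed to make a fibre. The genes are switched on in sequence as cells leave the matrix at the base of the hair bulb and move up into the cortex and the cuticle of the shaft, where keratin-associated proteins cross-link the filaments. ADAM17 cuts membrane-bound ligands of the EGF receptor free from the cell surface, and this receptor is known to shape the growth and the keratinisation of hair follicles. The first coat of mice is still growing at the age studied, so back skin holds many follicles that are making shafts.

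The tested animals were 2 conditional knockouts (cKO), Adam17 flox/flox and positive for Krt14-Cre, in which the keratin 14 promoter drives the Cre recombinase. They were set against 2 littermates without Krt14-Cre, called controls. All 4 mice were 10 days old, carried a mixed background of 129Sv and C57BL/6, and came as 1 cKO and 1 control animal from each of 2 litters. The keratin 14 promoter is active in the basal epidermis and the outer root sheath, while the biopsies were whole skin with dermis, fat and muscle. Which cells of the follicle, those of the shaft included, had lost Adam17 was not measured here. Because no control carried Cre, loss of Adam17 and presence of Cre cannot be told apart. In such bulk tissue, fewer cells of a type and less RNA per cell cannot be told apart either.

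Each biopsy was read on 1 array of a single 1-colour Agilent slide, and every level below is the log2 signal relative to the 75th percentile of that array (signals of 772.4 and 776.1 on the cKO arrays, against 750.2 and 782.8 on the control arrays). Each array had 43379 gene spots, of which 53.7% to 56.6% stood well clear of background and none was saturated. Adam17 itself had 2 probes, and only the one that represents the gene is given here. That probe had levels of -0.14 and -0.12 in cKO skin, against 0.44 and 0.37 in control skin. The cKO mean was 69.0% of the control mean, but the difference of -0.54 ± 0.09 (SE) did not pass after adjustment over the whole table (limma, adjusted p = 0.114). Differences are cKO minus control on the log2 scale throughout. The median over all genes was 0.025, and a gene was called at an adjusted p under 0.05, which held for 11 genes that were higher and 42 that were lower in cKO skin. Precision is limited throughout by having 2 arrays a group.

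None of the 7 hair shaft keratins tested passed, where 0.341% of all genes did. All but Krt36 lay between 81.8% and 108.1% of the control level. Krt36 stood apart from the other members, at 199.7% of the control level and just outside the threshold. Krt31, Krt33b and Krt34 were lower in cKO skin in both litters, Krt33a and Krt36 were higher in both, and Krt35 and Krt85 differed in sign between the litters. Of all genes, 32.2% were lower and 40.3% higher in both litters. The unadjusted p was under 0.05 for Krt34 and Krt36, against 16.1% of all genes.

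**Figure D1:**
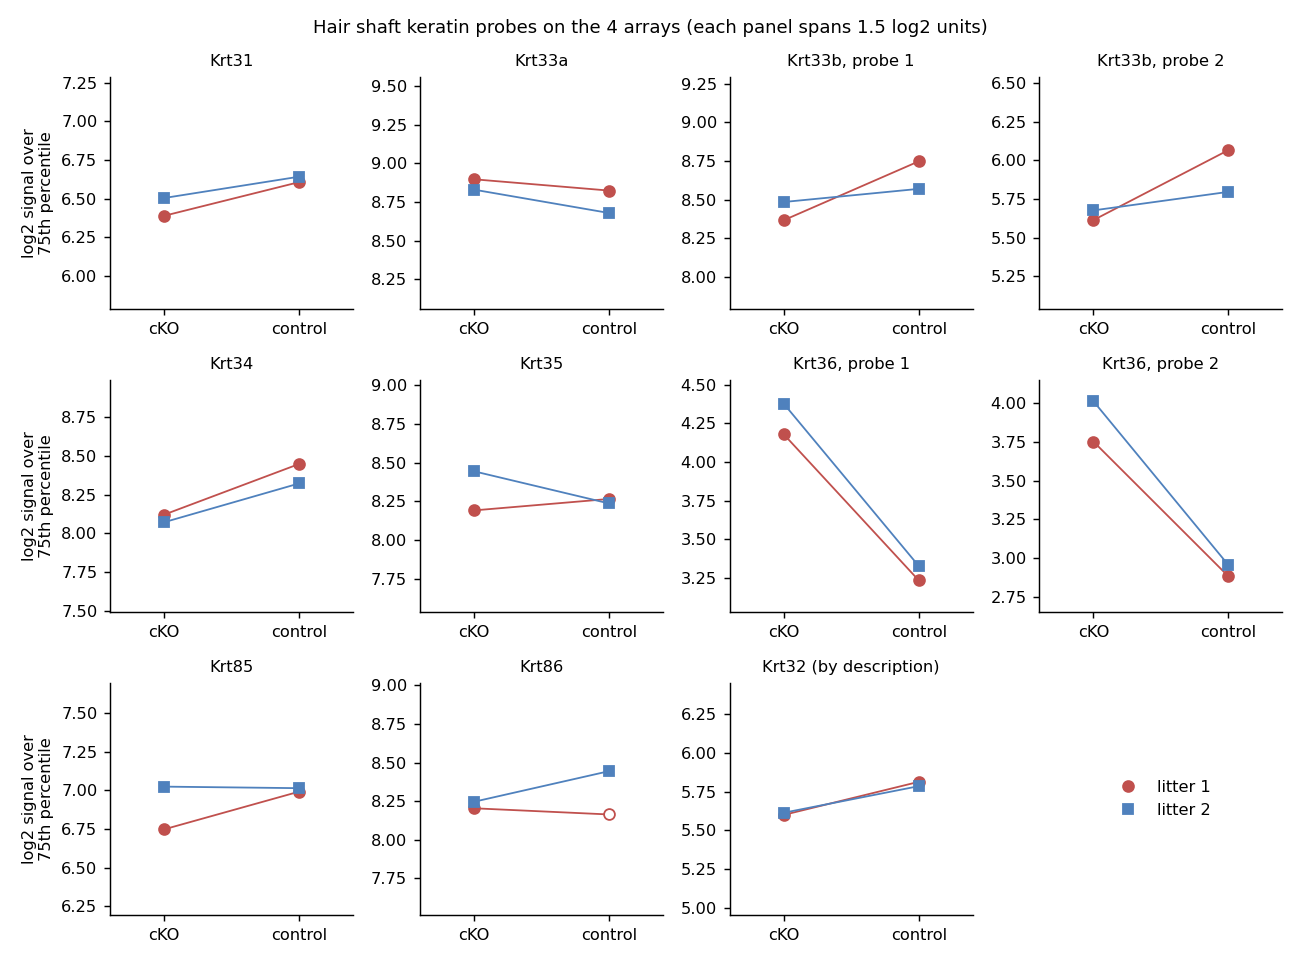
Log2 signal relative to the array's 75th percentile (vertical axes, each spanning 1.5 log2 units, none starting at 0) of each hair shaft keratin probe in cKO skin (left) and control skin (right). Where a gene has 2 probes, probe 1 has the higher mean. Points are single arrays, lines join littermates (circles, litter 1, and squares, litter 2), and the open circle is the flagged Krt86 spot. Both Krt36 probes lie higher in cKO skin in both litters, while the other probes differ by less than 0.5 between littermates.

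Krt31, Krt33a, Krt33b and Krt34 are type I keratins mapped in human hair to the cortex, the main body of the shaft. Krt34 gave 8.12 and 8.07 in cKO skin, against 8.45 and 8.32 in control skin. Both cKO arrays lay below both control arrays. In 49.3% of all genes the groups likewise did not overlap. The difference was -0.29 ± 0.09 (SE, n = 2 each), with a 95% interval of -0.54 to -0.039, and the cKO mean was 81.8% of control. Its interval left out 0 on its own, but after adjustment over all genes Krt34 did not pass (limma, unadjusted p = 0.0321, adjusted p = 0.265). Under quantile normalization the difference was -0.12 ± 0.09 (SE; adjusted p = 0.568), smaller by more than 1.5 times.

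Krt33b showed 8.37 and 8.48 in cKO skin and 8.75 and 8.57 in control skin. The groups did not overlap, as in 49.3% of all genes, and the gap was -0.38 in litter 1 and only -0.085 in litter 2. The difference of -0.23 ± 0.11 (SE) corresponded to 85.1% of control (limma, adjusted p = 0.398). A second Krt33b probe, whose 60 bases the files place over 939 bases of the genome, read -0.45 in litter 1 and -0.12 in litter 2. Its difference was -0.29 ± 0.13 (SE; limma over probes, adjusted p = 0.382), the same direction and order of litters as the first probe. Over probes, 0.158% of 22190 passed, and no hair shaft keratin probe was among them.

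Krt31 stood at 6.39 and 6.50 in cKO skin, against 6.61 and 6.64 in control skin. Both cKO values were again the lower ones, by 0.14 to 0.22 within litters. The difference was -0.18 ± 0.09 (SE), 88.4% of control, with an interval from -0.42 to 0.067 (limma, adjusted p = 0.436).

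Krt33a, the neighbour and close relative of Krt33b, ran the other way. It gave 8.90 and 8.83 in cKO skin and 8.82 and 8.68 in control skin. The groups did not overlap, as in 49.3% of all genes, but the cKO array of litter 2 and the control array of litter 1 lay almost together. The difference was 0.11 ± 0.10 (SE), 108.1% of control, with an interval of -0.15 to 0.37 (limma, adjusted p = 0.625). Its spots were the brightest of all members' probes, with linear signals of 367854 and 353016 in cKO skin and 339736 and 320629 in control skin.

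Krt35 is, in human hair, the type I keratin that comes on earliest, from the matrix upward. Its levels were 8.19 and 8.44 in cKO skin, against 8.26 and 8.24 in control skin. The control animals differed by only 0.03 and lay between the cKO animals, so the groups overlapped. The cKO animal was lower by 0.075 in litter 1 and higher by 0.21 in litter 2, which gave a mean difference of 0.067 ± 0.12 (SE; interval -0.25 to 0.39; limma, adjusted p = 0.817). A shift to 84.0% or to 130.6% of control is within that interval.

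Krt32, a type I keratin of the cuticle in human hair, could be followed only through a probe that the array names by a transcript number and whose description reads keratin 32. That probe lay outside the rule for members and is given as a value. It read 5.60 and 5.61 in cKO skin and 5.81 and 5.79 in control skin, a difference of -0.19 ± 0.08 (SE), 87.5% of control (limma, adjusted p = 0.359). Littermates differed by -0.21 and -0.17.

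Krt36 is a type I keratin that, in mice, is also known from the filiform papillae of the tongue. It was read by 2 probes, both on the minus strand of chromosome 11 in mm9, at chr11:99963577-99963636 and at chr11:99963329-99963360 as the files place them, so they do not overlap. The first, which had the higher mean and represents the gene, is shown because the one large difference among the members rests on it.

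Krt36 probe: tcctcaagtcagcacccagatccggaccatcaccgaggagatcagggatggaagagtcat

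That probe gave 4.18 and 4.38 in cKO skin, against 3.23 and 3.33 in control skin. The lower cKO array was above the higher control array by far more than either pair of arrays of a group differed, which was 0.20 in cKO skin and 0.093 in control skin. Within litters the cKO animal was higher by 0.94 and 1.05. The difference was 0.998 ± 0.11 (SE), with an interval of 0.70 to 1.29, or 162.7% to 245.0% of control. Krt36 ranked 131 of 15562 genes by p, and its adjusted p was 0.0629 (limma), so it did not pass. Only 1.77% of genes differed by as much in either direction.

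The second Krt36 probe read 3.75 and 4.01 in cKO skin and 2.88 and 2.95 in control skin. It showed the same separation, with differences of 0.87 and 1.06 in the litters and 0.97 ± 0.12 (SE) overall (limma over probes, adjusted p = 0.101). The first probe's value in that fit over probes was adjusted p = 0.0824. The 2 probes share a gene name and the same arrays, so they are a check of the spots and not of the animals. No transcript listed for either probe matched a current gene symbol, so that name rests on the array's own annotation. The files place the 60 bases of the second probe over only 32 bases of the genome.

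The type II members were measured less well. Krt85, in humans an early keratin of the matrix and a gene of hair and nail dysplasia, gave 6.75 and 7.03 in cKO skin, against 6.99 and 7.01 in control skin. The low value was that of the cKO animal of litter 1 alone, and the groups overlapped. Littermates differed by -0.24 in litter 1 and 0.009 in litter 2, with a mean of -0.12 ± 0.12 (SE; interval -0.45 to 0.21; limma, adjusted p = 0.688).

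Krt86, a cortex keratin that is mutated in the human hair disorder monilethrix, had 1 probe. Its linear signals were 227834 and 235710 in cKO skin, against 215138 and 272707 in control skin. The spot of control 1 was flagged as non-uniform, with a pixel standard deviation of 99613 where the other arrays had 20788 to 23311. In litter 2, free of the flag, the levels were 8.25 in the cKO animal and 8.44 in the control animal, a difference of -0.20. With the flagged spot kept, the difference over both litters was -0.078 ± 0.13 (SE; limma, adjusted p = 0.798).

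The Krt86 probe lists transcripts of both Krt81 and Krt86, and Krt81 had no probe of its own, so the signal cannot be assigned to either gene alone. A probe that the array names Krt83 lists transcripts now assigned to Krt81, Krt86 and Krt87. Both sequences are given because they show the overlap. The Krt86 probe lies at chr15:101307291-101307350 (plus strand, mm9) and the Krt83 probe at chr15:101264040-101264099 (minus strand), and the last 20 bases of the first are the first 20 bases of the second, in capitals.

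Krt86 probe: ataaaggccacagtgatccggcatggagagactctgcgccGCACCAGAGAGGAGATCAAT

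Krt83 probe: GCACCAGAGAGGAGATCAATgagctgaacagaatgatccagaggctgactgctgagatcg

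No other pair of the hair keratin probes shared a run of more than 10 bases. The Krt83 probe read 7.89 and 7.96 in cKO skin, against 8.12 and 8.22 in control skin. Both cKO values were lower, by 0.22 and 0.26 within litters, and the mean was 84.6% of control (difference -0.24 ± 0.09 SE; limma, adjusted p = 0.316). Of the other hair keratins outside the member list, Krt84 stood at 114.6% of control (0.20 ± 0.08 SE, adjusted p = 0.354) and Krt82 at 108.6% (0.12 ± 0.09 SE, adjusted p = 0.58). Krt84 is known, like Krt36, from mouse tongue papillae, and Krt82 is a cuticle keratin of human hair.

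**Figure D2:**
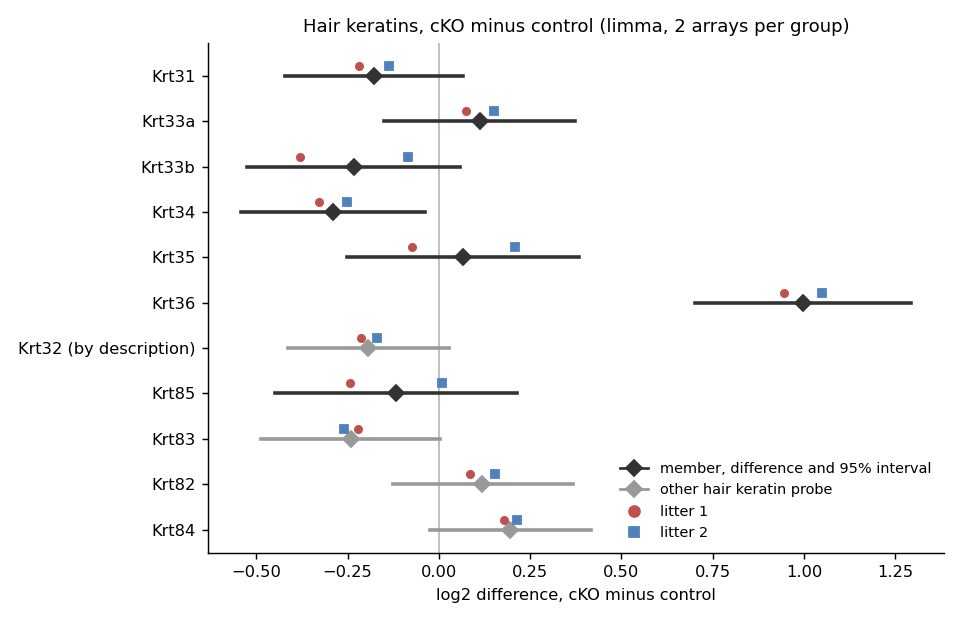
Difference in log2 level, cKO minus control, of each hair keratin (horizontal axis). Diamonds are means with 95% intervals from limma (black, members; grey, other hair keratin probes), and small circles and squares are litters 1 and 2. Krt36, at 0.998, lies to the right of the intervals of all the others, and the intervals of all members except Krt34 and Krt36 include 0.

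The median difference over the 6 type I members was -0.055 and that of the only type II member, Krt85, was -0.12. By litter, the type I median was -0.15 in litter 1 and 0.033 in litter 2, and Krt85 was -0.24 in litter 1 and 0.009 in litter 2. The type I members went both ways in each litter, and with 1 type II gene the classes could not be compared by a test. The type I median was -0.148 without cKO replicate 2, -0.021 without cKO replicate 1, -0.031 without control replicate 1 and -0.001 under quantile normalization. Without Krt36, the type I median was -0.18. The summed linear level of the 7 members, in multiples of the 75th percentile, was 1587 and 1672 in cKO skin, against 1775 and 1651 in control skin, so the cKO animal of litter 1 had the lowest sum and its control littermate the highest.

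All 8 member probes other than those of Krt36 were so bright on all 4 arrays that the scanner's software took their value from a second scan at lower gain and scaled it up, as it did for 2.21% to 2.32% of gene spots. Both Krt36 probes were read from the scan at higher gain. The 691 other genes read at the lower gain had a median difference of 0.011, with 262 lower and 295 higher in both litters. What part the change of scan has in the contrast between Krt36 and the other members was not tested.

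The type I probes span 91.1 kb of chromosome 11 in mm9, in the order Krt33a, Krt33b, Krt34, Krt31, Krt32, Krt35 and Krt36. Krt33b, Krt34, Krt31 and the Krt32 probe, each of them lower in both litters, follow one another along it, and Krt36 lies at the end. Beyond Krt36 come keratins outside the member list. Krt13 was at -0.54 ± 0.10 (SE; limma, adjusted p = 0.128) and Krt19 at -0.67 ± 0.08 (SE; limma, adjusted p = 0.0779). Between them Krt15, counted below among the outer root sheath genes, was at -0.075 ± 0.12 (SE). Of the neighbours on either side of Krt36, Krt35 was close to 0 and Krt13 was lower. On chromosome 15 the neighbourhood of the type II genes held 4732456N10Rik at -1.23 ± 0.10 (SE; limma, adjusted p = 0.05, not under the threshold). It also held Krt7, a keratin of simple epithelia, at 1.32 ± 0.17 (SE; limma, adjusted p = 0.0829).

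**Figure D3:**
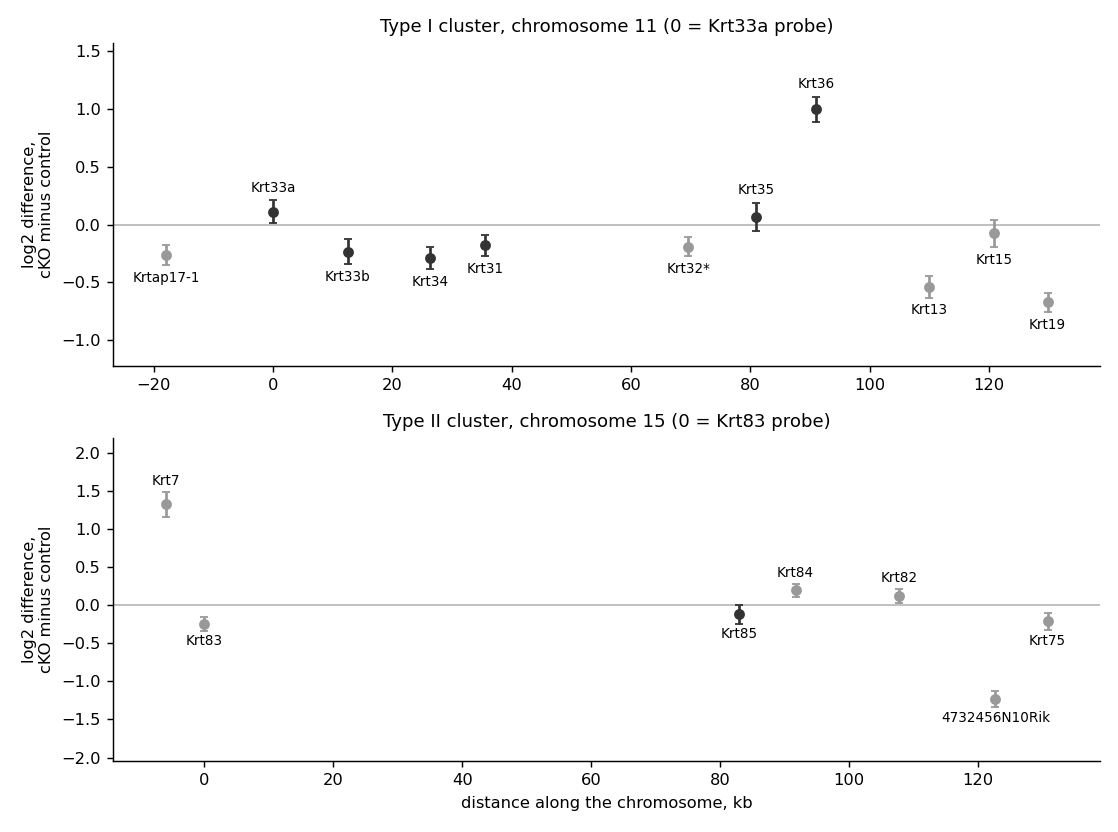
Difference in log2 level, cKO minus control (vertical axes), against distance along the chromosome in kb for the type I cluster (upper panel, from the Krt33a probe) and the type II cluster (lower panel, from the Krt83 probe). Black points are members, grey points other genes, bars are standard errors, and Krt32* marks the probe known by its description. Krt36, at 0.998, sits between Krt35 at 0.067 and Krt13 at -0.54.

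Promoter sequences (RefSeq, GRCm38.p6, 250 bases before and 50 after the start) were at hand for 5 members, all on the minus strand of chromosome 11. Krt34 and Krt36 are shown, as the members with the lowest and the highest difference. The windows are chr11:100041505-100041804 for Krt34 and chr11:100105577-100105876 for Krt36. Capitals mark TATAAA, the usual core of a TATA box, and CTTTGA, the core to which the LEF and TCF factors of Wnt signalling bind, each searched on both strands.

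Krt34 promoter: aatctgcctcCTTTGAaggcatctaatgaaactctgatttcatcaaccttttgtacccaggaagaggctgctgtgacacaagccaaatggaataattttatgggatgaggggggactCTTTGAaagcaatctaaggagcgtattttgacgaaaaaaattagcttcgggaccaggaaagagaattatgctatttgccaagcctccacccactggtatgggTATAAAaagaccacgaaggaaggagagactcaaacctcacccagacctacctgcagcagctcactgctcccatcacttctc

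Krt36 promoter: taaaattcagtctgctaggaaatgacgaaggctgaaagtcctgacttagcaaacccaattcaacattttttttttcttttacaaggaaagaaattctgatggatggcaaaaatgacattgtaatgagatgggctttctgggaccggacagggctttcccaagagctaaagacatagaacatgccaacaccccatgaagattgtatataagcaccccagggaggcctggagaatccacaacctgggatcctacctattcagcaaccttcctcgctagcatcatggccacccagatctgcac

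TATAAA and CTTTGA were both found in Krt31, Krt32, Krt33b and Krt34, and neither in Krt36. Among 32851 promoter windows of the same length, 13.6% held TATAAA and 16.0% held CTTTGA. The Krt36 window holds TATATAA, a longer relative of the same box, which was looked for after its letters had been read and which occurs in 3.2% of windows. A match is a run of letters and not a site in use.

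Keratin-associated proteins form the matrix between the keratin filaments of the shaft. Of 41 such genes tested, 35 were lower in cKO skin in both litters and 1 was higher, against 32.2% and 40.3% of all genes, and their median difference was -0.26. None passed the adjusted p, although 18 of the 41 had an unadjusted p under 0.05 (all genes, 16.1%). Krtap4-7 gave 5.50 and 5.39 in cKO skin, against 6.48 and 6.37 in control skin, 50.6% of control (-0.98 ± 0.10 SE; limma, adjusted p = 0.0534). Krtap4-2 gave 4.75 and 4.35 in cKO skin, against 6.09 and 5.98 in control skin, 35.6% of control (-1.49 ± 0.16 SE; adjusted p = 0.0629). Both passed under median centring (adjusted p = 0.0376 for Krtap4-7 and 0.0356 for Krtap4-2), where 0.688% of all genes passed, against 0.341% in the main fit. Neither passed with the replicate block, normexp on all spots or quantile normalization. These families hold near-identical copies, so a probe may read several of them, and the genes are not independent of each other.

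Of the other shaft proteins, 5 of 6 were tested. All 5 were below control in either litter (median -0.45), and none passed. Padi3, which converts arginine to citrulline in shaft proteins, was at 63.1% of control (-0.66 ± 0.11 SE; limma, adjusted p = 0.121). Dsg4, the desmoglein that holds shaft cells together, was at 66.8% (-0.58 ± 0.10 SE; adjusted p = 0.121). The shaft keratins had a median of -0.12 beside these, and the difference between the groups was not tested. Without cKO replicate 2 the medians were -0.24 for the shaft keratins and -0.20 for the keratin-associated proteins. In the same order, they were 0.02 and -0.22 without cKO replicate 1. They were -0.128 and -0.219 without control replicate 1, and -0.107 and -0.217 without control replicate 2.

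The inner root sheath surrounds and moulds the growing shaft and has keratins of its own. Of 7 genes tested out of 10 listed, 6 were lower and 1 was higher in both litters (median -0.31, and -0.17 under quantile normalization), and none passed. The sheath keratin Krt26 was at 52.3% of control (-0.94 ± 0.09 SE; limma, adjusted p = 0.0526) and Padi1, a second arginine deiminase, at 50.4% (-0.99 ± 0.10 SE; adjusted p = 0.0616). The other genes lay closer to control, with Krt27 at 64.4%, Krt28 at 80.6%, Krt71 at 96.8%, Tchh at 97.0% and Krt25 at 108.5%. Krt26 passed under quantile normalization (adjusted p = 0.0496), but not with the replicate block, normexp on all spots or median centring. In the outer root sheath and companion layer 5 of 8 genes were higher and 3 lower in both litters (median 0.14), and none passed. Krt6a was at 173.8% of control (0.80 ± 0.13 SE; limma, adjusted p = 0.114) and Krt6b at 160.1% (0.68 ± 0.15 SE; adjusted p = 0.173), both of them keratins of the companion layer and of stressed epidermis. The 3 lower genes were Krt75 at 86.4%, Krt17 at 93.9% and Krt15 at 94.9% of control. Krt16 was at 122.0%, Krt14 at 114.1% and Krt5 at 106.4%.

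Among 20 regulators of the shaft, such as Hoxc13 and Foxn1, which are known to switch hair keratin genes on, 9 were lower and 7 higher in both litters (median -0.064), and none passed. Hoxc13 gave 1.04 and 1.64 in cKO skin, against 1.19 and 1.58 in control skin, so the groups overlapped and the litters differed more than the genotypes. Foxn1 was at 84.5% of control (-0.24 ± 0.10 SE; limma, adjusted p = 0.343). The 2 with the smallest p were the secreted signals Bmp2, at 71.6% of control (-0.48 ± 0.10 SE; limma, adjusted p = 0.158), and Wnt3a, at 78.3% (-0.35 ± 0.08 SE; adjusted p = 0.191). Among the 7 that were higher in both litters, Lef1 was at 137.6% of control (0.46 ± 0.12 SE; limma, adjusted p = 0.206). Shh, also among these 7, was at 145.1% (0.537 ± 0.245 SE; limma, adjusted p = 0.39). Proliferation genes, which mark the dividing matrix as well as the basal epidermis, were higher in both litters for 7 of 10 and lower for 1 (median 0.12), with Mki67 at 124.3% of control (0.31 ± 0.11 SE; adjusted p = 0.303) and Aurkb at 109.8% (0.14 ± 0.08 SE; adjusted p = 0.505).

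**Figure D4:**
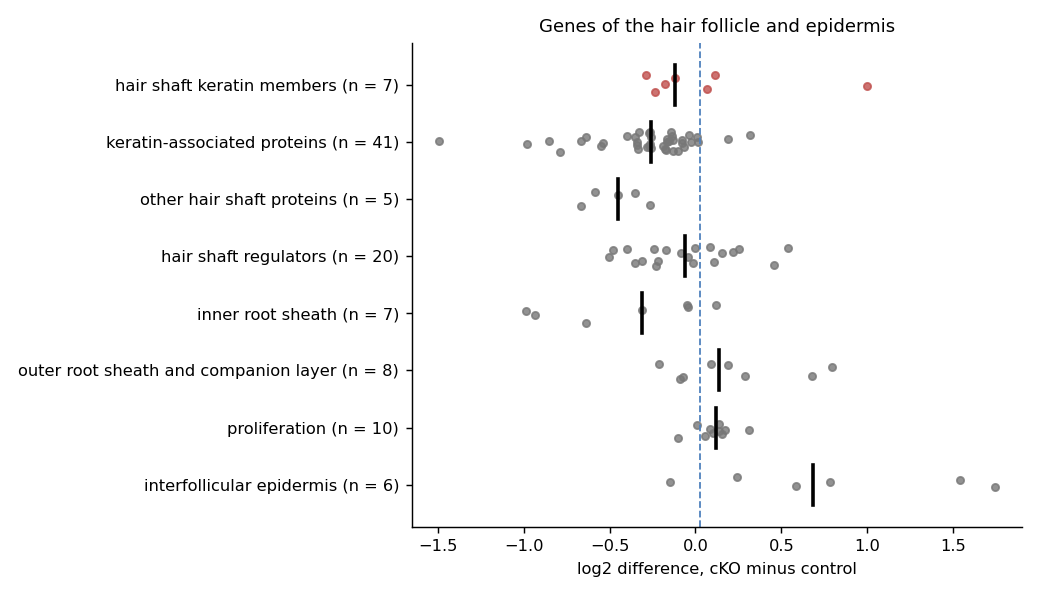
Difference in log2 level, cKO minus control (horizontal axis), of each tested gene (points, members in red, spread vertically only for legibility) of the groups of the hair follicle and the epidermis. Black bars are group medians and the dashed line is the median over all genes, 0.025. The keratin-associated proteins centre on -0.26 and the shaft keratins on -0.12, with Krt36 alone at 0.998.

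Markers of other cells in the biopsies are given beside these values, and their part in the values of the shaft keratins was not tested. Markers of the interfollicular epidermis were higher in both litters for 5 of 6 genes (median 0.68), with sums of 662.0 and 789.6 in cKO skin, against 553.8 and 536.5 in control skin. Krt1 stood at 334.6% and Flg at 291.0% of control, though neither passed (limma, adjusted p = 0.126 and 0.128). Without cKO replicate 1, the Krt1 difference was 2.17. Fat cell markers were higher in both litters for 7 of 10 genes (median 0.59), with sums of 399.5 and 369.6 in cKO skin, against 345.2 and 255.5 in control skin. Retn was at 320.0% and Thrsp at 185.2% of control (both with an adjusted p of 0.0526), and both passed under median centring (adjusted p = 0.0294 and 0.0493). Neither passed with the replicate block, normexp on all spots or quantile normalization.

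Skeletal muscle markers summed to 638.9 and 643.8 in cKO skin, against 593.1 and 438.7 in control skin. They were higher in both litters for 8 of 10 (median 0.37), with Mb at 179.1% of control (adjusted p = 0.0786) and Myh2 at 168.2% (adjusted p = 0.128). Red cell markers were lower in both litters for all 5 tested (median -0.37), with sums of 173.0 and 103.3 in cKO skin, against 198.8 and 148.3 in control skin. Slc4a1 was at 52.9% (adjusted p = 0.0571) and Ahsp at 71.8% of control (adjusted p = 0.398). Melanocyte markers were higher in both litters for all 4 tested (median 0.31), with sums of 165.4 and 173.8 in cKO skin, against 126.6 and 150.0 in control skin. Slc45a2 was at 125.7% (adjusted p = 0.281) and Dct at 128.2% of control (adjusted p = 0.31). Dermal papilla markers, from the mesenchyme that instructs the hair bulb, summed to 7.4 and 7.2 in cKO skin and to 7.4 and 7.2 in control skin. Of the 5 tested, 2 were lower and 2 higher in both litters (median -0.013), with Corin at 71.9% of control (adjusted p = 0.327) and Crabp1 at 88.6% (adjusted p = 0.463). Vcan was at 124.8%, Alpl at 118.1% and Sostdc1 at 99.1% of control. In the main fit, none of the marker genes of these 6 groups passed.

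The genes whose pattern over the 4 arrays was most like that of Krt36 were found by the Euclidean distance between profiles centred on their own mean, among 15555 genes other than the members. The nearest was Adam8, a metalloprotease of the ADAM family, at a distance of 0.070 and with a difference of 0.98 (limma, adjusted p = 0.0526). Then came Ptges, the prostaglandin E synthase, at 0.083, Trp73, a transcription factor of the p53 family, at 0.095, Fam26f at 0.10 and Fbp2, a fructose bisphosphatase, at 0.14. Only 3 genes lay within 0.1 of Krt36. By contrast, 653 genes lay within 0.1 of the median profile of the members, the nearest being COX2 (the mitochondrial cytochrome c oxidase subunit), Rbm25, Pip5k1b, Tarbp2 and Ldha. Around Krt33a there were 534 such genes, led by Wdr6, Ubtd1, Fth1, Mgat1 and Gpr108, and around Krt35 there were 279, led by Rccd1, Glt25d1, Gnas, Neurl4 and Nos3. With 4 arrays, a close match is easily found where a profile is flat.

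With litter in the model as a replicate block, every member's difference is the same by design, since each litter holds 1 animal of each genotype. No member passed in that fit, as 0% of all genes passed there. Krt36 had an adjusted p of 0.0877 in that fit (limma), with a smaller standard error of 0.070. Normexp background correction without the 3 spots that lay below their local background, a setting added after the data were seen, brought Krt36 past the threshold, at 1.01 ± 0.11 (SE; limma, adjusted p = 0.0379). The same setting also brought Krt26, Padi1, Krtap4-2, Krtap4-7, Retn, Thrsp and Slc4a1 past it. Across all settings, its difference ran from 0.76 to 1.10 and its adjusted p from 0.0379 to 0.722.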

How the data were processed

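Per the labels' protocols, RNA of each back skin biopsy was purified with a column kit that included a DNase step and labelled with Cy3. The deposited scanner files hold intensity values and flags per spot from Agilent Feature Extraction (10.7.3.1 per the file headers, 10.5 per the submitters' processing notes), with probe positions in mm9. The authors' deposited series table holds log2 values, which matched log2 processed signals scaled to the 75th percentile and then centred per probe on its median (correlation 0.99999; column medians -0.061 and 0.081 for cKO and -0.076 and 0.056 for control arrays). It was an alternative.

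From the intensity files, the background-subtracted, detrended processed signal was put on the log2 scale relative to the 75th percentile of its array, without control spots and the 51 to 66 outlier spots per array. Probes with a value on every array and a signal well above background on both cKO or both control arrays were kept (22190 of 41174). The probe with the highest mean stood for a gene. The tests were two-sided and used limma 3.58.1 (R 4.3.3) with lmFit and eBayes on genotype alone, with Benjamini-Hochberg adjustment across the genes tested and a threshold of 0.05. On simulated data of 2 against 2 arrays over 15562 genes, it recovered 44.5% of 2-fold and 90.1% of 4-fold changes, with 5.5% false calls among those called. The simulation changed 200 genes, drew each gene's spread from limma's own fitted prior, and had independent arrays without litters. It thus checks the fit under the fit's own assumptions and does not give the error rate or power in these data.

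The members and the lists were chosen with earlier results of these data known, and nothing here is independent support for them. Named genes were all members and Adam17, of each list the 2 with the smallest p (none held a gene past the threshold), and the 5 nearest genes by profile. The neighbours on the chromosomes, Hoxc13, Foxn1, Lef1 and Shh were named outside this rule, after their values were seen. The same holds for the further genes of the inner root sheath, outer root sheath and dermal papilla lists. Litter numbers in the labels pair the animals. Across genes, the deviations of littermates from their group means correlated at 0.348 (Spearman 0.426). All 4 arrays shared 1 slide and 1 scan time, so neither could be tested as a batch. For the updated gene names, 26690 probes were named by accession through RefSeq (GRCm38.p6), 5189 by current symbol and 952 by synonym, and 8343 kept the name in the files. Alternatives were the block, background correction, scaling, filter on dim probes, probe choice, gene names, flagged spots, the series table and leaving out each array.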

Additional observations from a re-analysis of the deposited data

Results flagged for a closer look

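Krt35 and Krt85 had cKO and control animals on opposite sides in the 2 litters. For Krt35 the cKO animal differed from its littermate by -0.075 in litter 1 and by 0.208 in litter 2. For Krt85 the differences were -0.245 in litter 1 and 0.009 in litter 2. In both genes the cKO animals differed by more (0.25 for Krt35 and 0.28 for Krt85) than the control animals did (0.03 and 0.022). The difference between the litters was not tested, since each litter holds 1 animal of each genotype.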

How the results depend on the processing

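In the values reported, 0.341% of genes passed the threshold (limma). With the replicate block 0% did (lowest adjusted p 0.0533; 3725 genes had an unadjusted p under 0.05, where the fit that ignored litter had 2510), with normexp background correction 0% (453 genes at an unadjusted p under 0.05) and with no filter on dim probes 0% (2075 of 28085 genes). With probes well above background on all 4 arrays 0.207% passed, with median centring 0.688% and with normexp without the 3 spots below local background, the setting added after the data were seen, 0.867%. Leaving out 1 array gave 0.0193% (without control replicate 1) to 0.238% (without cKO replicate 1), with 0.0707% without control replicate 2 and 0.122% without cKO replicate 2. Of the members, 1 passed under the added normexp setting (Krt36) and 0 under every other. The replicate block changed no member's call. Normexp on all spots moved the type I median to -0.362 (against -0.055) and the type II median to -0.389 (against -0.118), and turned Krt33a to -0.122 and Krt35 to -0.239. On cKO replicate 2 the fitted background was -371.1 with the 3 spots and 47.9 without them, against 44.0 on cKO replicate 1 and 38.6 and 44.8 on the control arrays. When 1 array was left out, Krt35 ran from -0.06 (without cKO replicate 2) to 0.194 and Krt85 from -0.255 to 0.02 (without cKO replicate 1). Of 105 values of members under 15 alternatives, 100 kept their direction and their side of the threshold, 4 turned and 1 passed. Several of these alternatives left each member's difference at the same value, namely the replicate block, the changed filters and the updated names. They could turn no direction, so the count of 100 is no measure of robustness. By the sign of the mean difference, and not by both litters as above, 37 of 41 keratin-associated proteins were lower in the main setting. By that measure 35 (quantile normalization) to 39 of 41 were lower in the settings that kept 41 genes, and 31 of 33 with updated names. Of all listed genes that are no members, 4 passed with median centring (Krtap4-2, Krtap4-7, Retn and Thrsp), 7 with the added normexp setting (these and Krt26, Padi1 and Slc4a1), 1 with quantile normalization (Krt26) and 1 without cKO replicate 1 (Krt1). Quantile normalization also moved Krt33b to -0.132 and Krt35 to 0.229. The median of all genes stayed between 0.0143 and 0.0463. Where the cause of a change is not given, it was not tested.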
